A study of Mus musculus with 6 samples.

Results

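The proteins of the small ribosomal subunit were followed here through their transcripts in early meiotic spermatocytes of Srp68 SKO and wild type mice. The members were the protein-coding rows of the deposited count table whose GENCODE vM21 symbol is Rps followed by a number (with an optional a, x or l) or is Rpsa, together with Fau, which gave 32 genes of 49584 rows. The libraries came from 2 groups, 3 labelled Srp68 SKO and 3 labelled wild type (WT), all from cells in leptotene and zygotene, the opening stages of meiotic prophase, sorted from testes at postnatal day 12. Srp68 is part of the signal recognition particle, which docks ribosomes making secretory or membrane proteins on the endoplasmic reticulum, and the series title names its knockout together with meiotic arrest. Poly(A) RNA was copied into full-length cDNA and amplified by PCR (Smart-seq2), then sequenced in paired reads of 150 bases. How the gene was deleted, any Cre driver, the mouse strain and the number of animals behind a library were not given in the sources used here, so the p-values cover the spread among these libraries alone, part of which may be technical.

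The small subunit, known as 40S, binds the mRNA and reads its codons, while the large subunit, 60S, joins the amino acids. Its proteins coat a single ribosomal RNA that folds into a head, a body and a platform, and the mRNA runs between head and body from an entry channel to an exit. In mammals nearly all mRNAs of these proteins start with a C followed by a run of pyrimidines, the terminal oligopyrimidine or TOP motif, through which the kinase mTORC1 and the RNA-binding protein Larp1 set their translation and stability together.

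The SKO libraries held 11.9 to 12.7 M counts and the WT libraries 14.3 to 15.4 M, so that 3 counts corresponded to between 0.174 and 0.289 CPM, counts scaled to a common library total with TMM factors between libraries. Srp68 itself had 12.1, 6.52 and 6.93 CPM in SKO libraries, against 21.7, 29.3 and 22.6 CPM in WT libraries, a log2 fold change of −1.52 (SE 0.28, edgeR adjusted p = 0.00107). Together, the 13 markers of leptotene and zygotene cells summed to between 31712 and 40682 CPM in SKO libraries, against 20192 to 25524 CPM in WT libraries. Of these, 9 were higher in SKO and 2 lower, Tex101 (log2 fold change −0.76) and Spo11 (−0.36). Over all tested genes, the background for each marker list here, 14.1% were higher and 14.4% lower. Markers of pachytene and later cells summed to 328 to 365 CPM in SKO libraries and 490 to 579 CPM in WT libraries, and 5 of the 6 tested were lower in SKO. Markers of differentiating spermatogonia summed to between 1428 and 1555 CPM in SKO and between 925 and 1092 CPM in WT libraries. Among 10 tested, 2 were higher, Stra8 (log2 fold change 2.28) and Rhox13 (0.86), and 2 lower, Uchl1 (−0.86) and Sohlh2 (−0.79). Their median was −0.16, and Stra8 alone averaged 486 CPM in SKO and 99.9 CPM in WT libraries. Markers of undifferentiated spermatogonia summed to 21.1 to 30.5 CPM in SKO and 15.4 to 34.5 CPM in WT libraries, with 0 of 6 called. Markers of somatic cells were low in both genotypes: those of Sertoli cells summed to 26.1 to 113 CPM in SKO and 45.0 to 57.4 CPM in WT libraries, and the Leydig genes Cyp11a1, Cyp17a1 and Hsd3b6 were at 0 in every library. Leydig markers summed to 5.09 to 10.7 CPM in SKO and 0.579 to 6.59 CPM in WT libraries, and endothelial markers to 2.71 to 4.27 CPM in SKO and 1.03 to 3.41 CPM in WT libraries. Myoid markers summed to 4.60 to 13.8 CPM in SKO and 1.27 to 2.35 CPM in WT libraries, with Acta2 higher, and macrophage markers to 1.86 to 45.1 CPM in SKO and 1.79 to 2.55 CPM in WT libraries, while erythroid markers summed to between 37.4 and 150 CPM in SKO and between 2.77 and 136 CPM in WT libraries. The macrophage gene Lyz2 passed as higher (edgeR adjusted p = 0.0454) with 1.23, 0.558 and 25.2 CPM in SKO libraries and 0.129, 0.348 and 2.16 CPM in WT libraries, of which SKO replicate 3 alone stood above every WT library. The part of these cell types, of the stage markers or of library depth in the values of the ribosomal protein genes was not tested. In bulk libraries of this kind a larger share of a cell type and more RNA per cell cannot be told apart.

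Transcripts of the small subunit were higher in SKO than in WT spermatocytes for almost the whole set. All 32 members passed the filter on low counts, 30 were higher in SKO, 0 were lower, and Rps2 and Rps9 did not pass the test (edgeR's quasi-likelihood test, two-sided, adjusted p under 0.05 over 13474 genes). The background in this comparison was 14.1% of all tested genes called higher in SKO, against 93.8% of the members. The same 30 members had every SKO library above every WT library, a separation seen in that direction in 21.6% of all tested genes. The median log2 fold change of the members was 0.90, a fold of 1.86, with quartiles at 0.68 and 1.06, while the median over all tested genes was −0.03. Of the 32, 11 had a log2 fold change over 1, 17 lay between 0.5 and 1, and 4 were under 0.5. Replicates lay close together, with a median coefficient of variation of 5.65% in SKO and 7.46% in WT libraries.

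**Figure D1:**
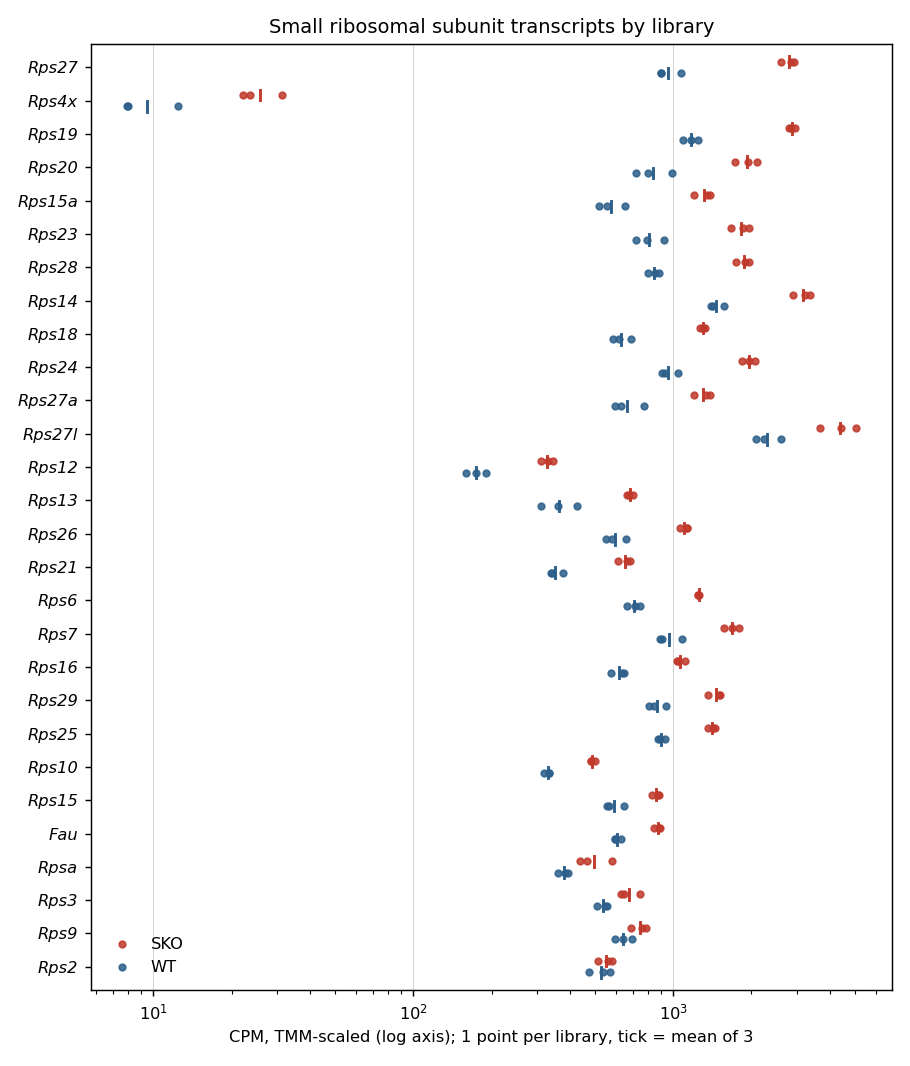
CPM of 28 small subunit genes on a log axis, with 1 point per library (red SKO, blue WT) and a tick at the mean of 3, ordered from the largest to the smallest fold change. The SKO points lie to the right of all WT points in 26 of the 28 genes and overlap with them in Rps9 and Rps2.

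The order of the genes within the set was largely kept. Across the 32 genes, mean CPM in SKO and in WT libraries had a Spearman correlation of 0.93, a description over genes that share their libraries. Per kilobase of annotated exon, Rps27l, a close relative of Rps27, stood highest in both genotypes, at 5374 CPM per kilobase in SKO and 2814 in WT. The next in WT was Rps29, a small zinc-binding protein of the head, with 2109 CPM per kilobase in SKO and 1245 in WT. Rps27 took the second place in SKO libraries at 2663 CPM per kilobase and stood at rank 5 in WT libraries at 917. Rps4x was the lowest by a wide margin in both genotypes, with 15.8 CPM per kilobase in SKO and 5.80 in WT. The next lowest was Rps3 in SKO, at 150 CPM per kilobase, and Rps12 in WT, at 86.1.

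The 6 largest increases covered a 1.18 to 1.54 range on the log2 scale. Rps27 (ENSMUSG00000090733; GRCm38 chromosome 3, 90212522 to 90213651, minus strand), a zinc-binding protein on the solvent side of the subunit, had 2586, 2911 and 2836 CPM in SKO libraries, against 900, 897 and 1073 CPM in WT libraries. Its SKO values were all more than double every WT value, with means of 2778 ± 170 CPM in SKO and 957 ± 101 CPM in WT (SD, n = 3 each), and the log2 fold change was 1.54 (SE 0.10, edgeR adjusted p = 4.49e-07). Rps19 (chromosome 7, 24884371 to 24889806, plus strand), a head protein whose gene is mutated in Diamond-Blackfan anaemia in humans, had 2835, 2929 and 2787 CPM in SKO and 1089, 1167 and 1242 CPM in WT libraries. It averaged 2850 ± 72.2 CPM in SKO and 1166 ± 76.3 CPM in WT (SD, n = 3 each), with a log2 fold change of 1.29 (SE 0.09, edgeR adjusted p = 6.8e-07).

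Rps20, a head protein that the ubiquitin ligase ZNF598 modifies on collided ribosomes in human cells, had 1734, 2103 and 1943 CPM in SKO and 722, 799 and 992 CPM in WT libraries (log2 fold change 1.20, SE 0.12, edgeR adjusted p = 9.28e-06). Rps15a, which sits on the ribosomal RNA of the body, had 1202, 1344 and 1390 CPM in SKO libraries and 519, 558 and 652 CPM in WT libraries (1.19, SE 0.11, edgeR adjusted p = 4.24e-06). Rps23, a protein beside the decoding centre that bears on the accuracy of codon reading, had 1674, 1955 and 1858 CPM in SKO and 718, 790 and 921 CPM in WT libraries (1.18, SE 0.11, edgeR adjusted p = 4.89e-06). For all of these the lowest SKO library was at least 1.5 times the highest WT library. Rps4x, the remaining gene of the 6 and the only X-linked member, is described with its retrocopy.

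At the other end were 6 genes with log2 fold changes from 0.06 to 0.54. Rps15, a head protein whose tail reaches towards the decoding site, had 870, 883 and 826 CPM in SKO and 555, 568 and 648 CPM in WT libraries (log2 fold change 0.54, SE 0.10, edgeR adjusted p = 0.000742). Fau, which encodes Rps30 joined to a ubiquitin-like protein, had 841, 881 and 891 CPM in SKO libraries and 599, 597 and 630 CPM in WT libraries (0.52, SE 0.09, edgeR adjusted p = 0.000576). Rpsa, a protein at the back of the subunit also known as the laminin receptor precursor, had 580, 467 and 437 CPM in SKO and 359, 394 and 384 CPM in WT libraries. SKO replicate 1 was the highest, and the groups did not overlap (0.38, SE 0.11, edgeR adjusted p = 0.0214). Rps3, a head protein at the mRNA entry channel, had 747, 645 and 629 CPM in SKO and 544, 554 and 510 CPM in WT libraries, again highest in SKO replicate 1 (0.33, SE 0.10, edgeR adjusted p = 0.0222).

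Neither of the last calls held in every repeat of the test. Rpsa did not pass without SKO replicate 1, SKO replicate 2 or WT replicate 1 (log2 fold change 0.25, 0.42 and 0.35, adjusted p = 0.0999, 0.0518 and 0.0869, edgeR), nor with library totals in place of TMM (log2 fold change 0.13, adjusted p = 0.476). Rps3 did not pass without SKO replicate 1 or 2 (log2 fold change 0.25 and 0.36, adjusted p = 0.0853 and 0.0579, edgeR), without WT replicate 1 or 3 (0.34 and 0.30, adjusted p = 0.0566 and 0.0562), or with library totals (log2 fold change 0.07, adjusted p = 0.652). Of the left-out libraries named here, SKO replicate 1 lowered both estimates the most.

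Rps9 and Rps2 were the genes that did not pass. Rps9, a body protein at the mRNA entry channel, had 785, 761 and 685 CPM in SKO libraries and 598, 639 and 691 CPM in WT libraries. The lowest SKO library lay just under the highest WT library, and the means were 744 ± 52.4 CPM in SKO and 642 ± 46.5 CPM in WT (SD, n = 3 each; log2 fold change 0.21, SE 0.10, edgeR adjusted p = 0.124). Rps2, which lines the same channel, had 580, 560 and 515 CPM in SKO and 537, 571 and 476 CPM in WT libraries, so the groups were interleaved (551 ± 33.3 CPM in SKO and 528 ± 48.2 CPM in WT; log2 fold change 0.06, SE 0.10, edgeR adjusted p = 0.689). Scaled by library totals alone, the estimates were −0.05 for Rps9 and −0.20 for Rps2 (adjusted p = 0.747 and 0.176, edgeR). With each library's trend on GC content and length taken out, they were 0.64 and 0.68 and passed (adjusted p = 0.000281 and 5.86e-05, edgeR), so the standing of these genes turned on that choice.

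**Figure D2:**
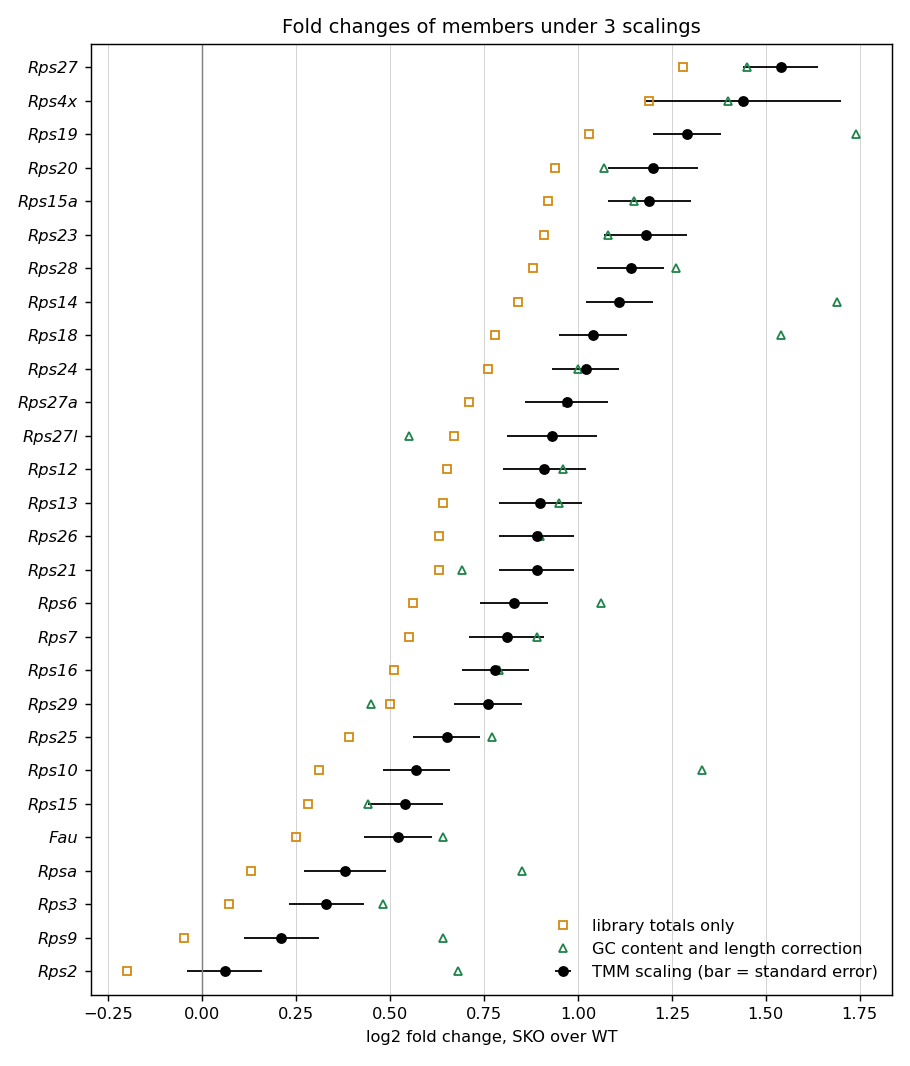
Log2 fold change, SKO over WT, of 28 small subunit genes with TMM scaling (black points, bars are standard errors), library totals (orange squares) and a GC content and length correction (green triangles). Values run from 0.06 to 1.54 with TMM, from −0.20 to 1.28 with library totals and from 0.44 to 1.74 with the correction.

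Among the other head proteins, Rps28, which reaches the mRNA exit, averaged 1865 ± 106 CPM in SKO and 844 ± 41.9 CPM in WT libraries (SD, n = 3 each, here and for the genes that follow). Rps18, which contacts the large subunit, averaged 1298 ± 31.1 CPM in SKO and 630 ± 51.4 CPM in WT. Both genes were about 2-fold higher in SKO, with log2 fold changes of 1.14 and 1.04. Rps16 averaged 1060 ± 42.1 CPM in SKO and 619 ± 39.4 CPM in WT (log2 fold change 0.78). Rps12, a protein of the beak of the head, had 309, 346 and 329 CPM in SKO libraries and 159, 174 and 190 CPM in WT libraries (0.91). Rps27a, which encodes its ribosomal protein joined to ubiquitin, had 1197, 1384 and 1338 CPM in SKO and 596, 631 and 770 CPM in WT libraries (log2 fold change 0.97, SE 0.11, edgeR adjusted p = 2.54e-05), so every SKO library of both genes was above every WT library. Rps29 averaged 1461 ± 82.4 CPM in SKO and 863 ± 65.3 CPM in WT (0.76). Rps25, which some viral RNAs need to recruit ribosomes, averaged 1408 ± 44.4 CPM in SKO and 899 ± 30.2 CPM in WT, and Rps10, a ZNF598 target in human cells, 489 ± 10.4 CPM in SKO and 329 ± 8.51 CPM in WT. Their log2 fold changes of 0.65 and 0.57 were the lowest of the head proteins after Rps3 and Rps15. Both genes share over 20% of their exon length with other annotated genes (24.8% for Rps25, with Ccdc84 and Trappc4, and 28.7% for Rps10), and the strand setting of the counting was not given in the sources used here, so their counts are uncertain.

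In the body and platform, Rps14, a platform protein whose human gene lies in the deletion of the 5q- syndrome, averaged 3153 ± 235 CPM in SKO and 1464 ± 90.8 CPM in WT libraries, a log2 fold change of 1.11. Rps24, another Diamond-Blackfan anaemia gene in humans, averaged 1949 ± 117 CPM in SKO and 959 ± 70.5 CPM in WT (1.02). Both were about 2-fold higher in SKO. Rps26, at the mRNA exit, averaged 1105 ± 37.3 CPM in SKO and 596 ± 55.8 CPM in WT (0.89). Rps13 averaged 681 ± 18.1 CPM in SKO and 365 ± 58.3 CPM in WT (0.90), and Rps21 653 ± 37.3 CPM in SKO and 352 ± 21.3 CPM in WT (0.89). Rps6, the substrate for which the S6 kinases are named, had 1261, 1249 and 1248 CPM in SKO libraries, the tightest replicates of any member, and 663, 712 and 746 CPM in WT libraries (0.83). Rps7, which can bind the p53 ligase Mdm2, averaged 1685 ± 113 CPM in SKO and 962 ± 107 CPM in WT (0.81).

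By position in the subunit, all 14 head proteins were higher in SKO, with a median log2 fold change of 0.84 and a range of 0.33 to 1.29, beside 15 of the 17 remaining proteins with a median of 0.89 and a range of 0.06 to 1.54. Proteins shared with bacteria were higher in 13 of 15 cases (median 0.78, range 0.06 to 1.20), and those found in eukaryotes, some of them also in archaea, in 16 of 16 (median 0.90, range 0.52 to 1.54). Rps27l was left out of these groups. The genes not called were Rps2 and Rps9 in both comparisons. As background, 14.1% of all tested genes and 93.8% of the members were called higher, and the difference between the groups was not tested. The genes lie on 14 chromosomes, with 9 of them on chromosome 7.

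Fold changes within the set varied with the length of the gene's coding sequence and with its GC content. Over the 32 genes, the Spearman correlation of the log2 fold change was −0.40 with coding length (171 to 888 bases) and −0.41 with the GC content of the gene's exons, a description over genes of the same libraries. The 10 genes with coding sequences under 400 bases had a median of 0.92 (0.65 to 1.54), and the 9 genes over 550 bases a median of 0.69 (0.06 to 1.44). With each library's trend on transcript GC content and exon length over all genes taken out, the correlations were 0.0 and −0.02 and the medians 0.93 and 0.85. Under that correction all 32 genes were higher in SKO, against a background of 11.6% of 13452 genes, and Rps19 had the highest log2 fold change at 1.74. Scaled by library totals alone, 28 genes were higher and 0 lower against a background of 7.5%, while the median of all tested genes was −0.29 and only 24.2% of all calls were higher in SKO, against 49.5% with TMM. The distance between the median of the members and that of all genes was 0.93 with TMM, 0.92 with library totals and between 0.85 and 0.97 over every setting tried.

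Rps27 and Rps27l encode near relatives of the same ribosomal protein, and Rps27l is known as a target of p53. Rps27l (ENSMUSG00000036781; GRCm38 chromosome 9, 66946086 to 66949516, plus strand) had 3685, 4423 and 5047 CPM in SKO libraries and 2225, 2075 and 2588 CPM in WT libraries. It averaged 4385 ± 682 CPM in SKO and 2296 ± 263 CPM in WT (SD, n = 3 each), with no overlap between the groups (log2 fold change 0.93, SE 0.12, edgeR adjusted p = 5.55e-05). Counts of Rps27l were 1.42, 1.52 and 1.78 times the Rps27 counts in SKO libraries and 2.47, 2.31 and 2.41 times in WT libraries. All 3 SKO ratios were thus below all 3 WT ratios, with means of 1.57 ± 0.184 in SKO and 2.40 ± 0.0789 in WT (SD, n = 3 each). An exact permutation test, two-sided, gave p = 0.1, as low as 3 against 3 libraries can go, and 0.15 after adjustment over the 3 ratios of related genes compared. The coding sequences of the pair, from the GENCODE vM21 transcripts, are shown because reads can be assigned to the one or the other only through the bases in which they differ, given in capitals.
Rps27: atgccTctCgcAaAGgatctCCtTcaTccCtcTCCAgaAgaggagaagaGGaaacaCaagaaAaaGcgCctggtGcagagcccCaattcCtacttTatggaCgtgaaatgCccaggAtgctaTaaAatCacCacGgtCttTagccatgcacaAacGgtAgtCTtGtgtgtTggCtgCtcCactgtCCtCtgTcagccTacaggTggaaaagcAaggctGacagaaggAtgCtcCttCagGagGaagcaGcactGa
Rps27l: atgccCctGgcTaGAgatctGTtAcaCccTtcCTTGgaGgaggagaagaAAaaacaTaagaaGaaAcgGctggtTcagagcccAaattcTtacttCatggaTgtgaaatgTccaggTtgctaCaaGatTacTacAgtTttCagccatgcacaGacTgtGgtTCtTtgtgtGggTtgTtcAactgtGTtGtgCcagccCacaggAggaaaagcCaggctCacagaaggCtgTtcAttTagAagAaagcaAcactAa
Over 255 aligned bases, 194 were identical and 61 differed (76.1% identity), and the longest run without a difference was 11 bases, far shorter than a read. Rps27l had no annotated copy of 98% identity or more over 150 bases among the rows of the table.

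Rps27rt, a retrocopy of Rps27 on chromosome 9 (114982366 to 114982739, minus strand) that lies outside the rule, has a coding sequence identical to that of Rps27 over all 255 bases. It had 195, 236 and 232 CPM in SKO and 69.9, 63.9 and 82.1 CPM in WT libraries (log2 fold change 1.62, SE 0.13, edgeR adjusted p = 2.03e-06). Its counts were 0.0794 ± 0.00352 of the Rps27 counts in SKO and 0.0751 ± 0.00340 in WT libraries (SD, n = 3 each; exact permutation p = 0.3, adjusted p = 0.3). Reads in the shared sequence cannot be assigned to one gene or the other, so both values are uncertain.

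Rps4x is the X-linked gene of a body protein, and Rps4l is a retrocopy of it on chromosome 6 (148354656 to 148355598, plus strand) that GENCODE vM21 lists as a transcribed processed pseudogene. Rps4x (ENSMUSG00000031320; chromosome X, 102184941 to 102189394, minus strand) had 382, 253 and 230 counts in SKO libraries and 193, 137 and 122 counts in WT libraries. In CPM it had 31.4, 23.5 and 22.1 in SKO and 12.4, 7.94 and 7.99 in WT libraries, so every SKO library was above every WT library (25.7 ± 5.01 CPM in SKO and 9.45 ± 2.58 CPM in WT, SD, n = 3 each). The log2 fold change was 1.44 (SE 0.26, edgeR adjusted p = 0.000899), with the widest error among the members. Among 614 tested X-linked genes, 27.5% were higher in SKO, against 14.1% of all tested genes, and 23 were lower. The X-linked median was 0.39 on the log2 scale, beside −0.03 for all tested genes. Whether the increase of Rps4x went beyond that of X-linked genes as a class was not tested.

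Rps4l was the more abundant of the pair by far. It had 422, 337 and 289 CPM in SKO libraries and 403, 498 and 411 CPM in WT libraries, and SKO replicate 1 lay within the range of the WT libraries. The means were 349 ± 66.9 CPM in SKO and 437 ± 52.7 CPM in WT (SD, n = 3 each), with a log2 fold change of −0.32 that did not pass (SE 0.13, edgeR adjusted p = 0.0902). It passed as lower in 5 of 19 other settings, among them library totals (−0.58, adjusted p = 0.00959, edgeR), over a range of −0.58 to −0.17. Rps4l had 13.4, 14.3 and 13.1 times the counts of Rps4x in SKO libraries, against 32.4, 62.7 and 51.5 times in WT libraries. The ratio of Rps4x to Rps4l was 0.0736 ± 0.00343 in SKO and 0.0221 ± 0.00783 in WT (SD, n = 3 each), higher in 3 of 3 SKO libraries than in any WT library (exact permutation p = 0.1, adjusted p = 0.15). The first 150 bases from the start codon are shown for both, since the counts of each depend on telling them apart, with the bases that differ in capitals.
Rps4x: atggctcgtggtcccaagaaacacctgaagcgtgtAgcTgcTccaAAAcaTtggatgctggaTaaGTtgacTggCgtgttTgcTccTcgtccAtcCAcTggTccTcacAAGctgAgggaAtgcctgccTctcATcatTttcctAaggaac
Rps4l: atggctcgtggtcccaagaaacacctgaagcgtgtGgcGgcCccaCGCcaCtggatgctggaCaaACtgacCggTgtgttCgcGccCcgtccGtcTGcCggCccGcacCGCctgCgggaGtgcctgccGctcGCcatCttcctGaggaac
Over 789 aligned bases, 632 were identical and 157 differed (80.1% identity, 3 gap bases), and the longest identical run was 35 bases. In Rps4l the first stop in frame came after 786 bases of the 789-base stretch that aligns with the Rps4x coding sequence.

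**Figure D3:**
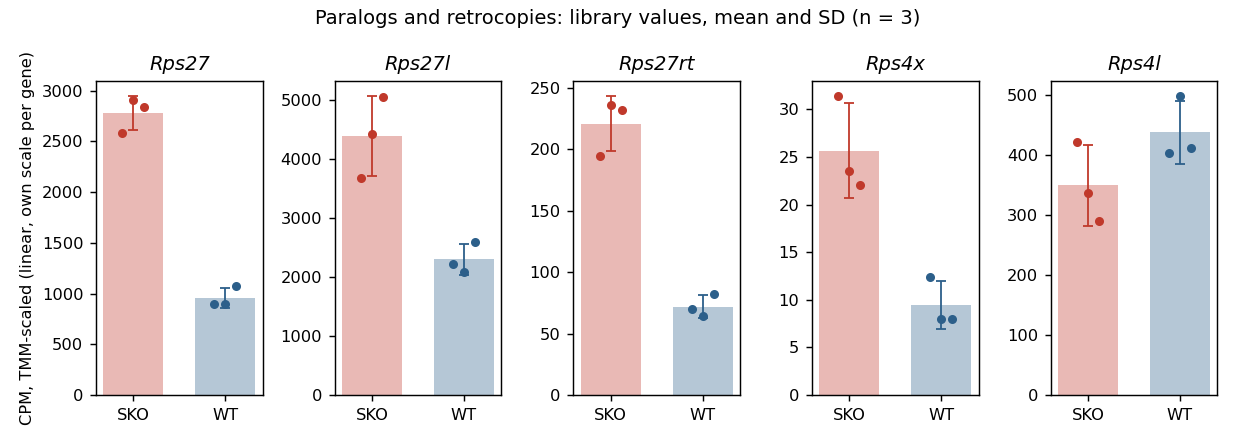
CPM of Rps27, Rps27l, Rps27rt, Rps4x and Rps4l in the SKO and WT libraries on linear axes with a scale of their own for each gene (points are libraries, bars are means, error bars are SD, n = 3). The first 4 genes were higher in every SKO library than in any WT library, while the Rps4l values of the genotypes overlap.

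Reads shared with processed pseudogenes touch the other members to differing degrees. Annotated copies of at least 98% identity over 150 bases held counts equal to 12.5% of the gene's own for Rps29, 12.3% for Fau, 9.5% for Rps27a, 9.47% for Rps13 and 8.08% for Rps6, and none were found for Rps3, Rps9, Rps14, Rps15 or Rps21. Of 108 rows named as pseudogenes of the members, 35 were at 0 in every library and 32 were tested, of which 10 were higher in SKO and 0 lower. The shares over all tested genes were 14.1% higher and 14.4% lower. All pseudogene counts together were 0.810 ± 0.144% of the members' counts in SKO and 0.812 ± 0.0626% in WT libraries (SD, n = 3 each). Adding the counts of the near-identical copies, or of the named pseudogenes, to their parents left 30 members higher in SKO and 0 lower.

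The starts of the members' transcripts were read from RefSeq promoters on GRCm38.p6, where 24 of the 32 genes were matched. The pyrimidine motif was CTTTT as the plain form, with CTTTC as a second form, CTTCC as another and CCTTT as the last, forms that can overlap one another, and was searched on the sense strand within 10 bases of the annotated start. At least 1 form was present in 11 of 24 members (45.8%), in 14 of 37 large subunit genes (37.8%) and in 12.9% of all genes of the table. The element CCGGAAGT, a binding motif of ETS family factors, stood on either strand of the 300 bases of promoter in 5 of 24 members (20.8%) and 7 of 37 large subunit genes (18.9%), against 4.31% of all genes, and TATAAA stood 20 to 40 bases before the start in 0 of 24 members, against 2.41% of all genes. The 40 bases around the annotated start are shown for members with a tract, then for the genes that did not pass the test and for Rps4x, with the tract in capitals.
Rps27, chr3:90213629-90213668, minus strand: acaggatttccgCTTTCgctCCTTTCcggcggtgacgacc
Fau, chr19:6057927-6057966, plus strand: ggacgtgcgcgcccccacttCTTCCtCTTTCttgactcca
Rps6, chr4:86857348-86857387, minus strand: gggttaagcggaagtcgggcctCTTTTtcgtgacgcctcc
Rps10, chr17:27635225-27635264, minus strand: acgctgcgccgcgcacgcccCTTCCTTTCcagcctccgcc
Rps15a, chr7:118116128-118116167, minus strand: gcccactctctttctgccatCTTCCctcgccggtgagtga
Rps2, chr17:24720043-24720082, plus strand: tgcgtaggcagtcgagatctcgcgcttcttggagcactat
Rps9, chr7:3704021-3704060, plus strand: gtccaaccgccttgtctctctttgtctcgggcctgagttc
Rps4x, chrX:102189372-102189411, minus strand: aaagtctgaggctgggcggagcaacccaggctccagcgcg
The genes shown with a match span much of the range of fold changes, from Fau at 0.52 to Rps27 at 1.54 on the log2 scale. Those shown without a match to these forms have 0.06, 0.21 and 1.44, and may still hold other runs of pyrimidines, as Rps9 does. A missing match says only that these letters are not within this window. The promoters of Rps14, Rps20, Rps27a and Rps29 were not used here.

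Summed over all members, small subunit transcripts took 4.02, 4.11 and 3.97% of all counts in SKO libraries and 2.42, 2.53 and 2.69% in WT libraries. The means were 4.03 ± 0.0683% in SKO and 2.55 ± 0.133% in WT (SD, n = 3 each), a ratio of 1.58, and no library of one genotype reached the range of the other. Large subunit genes took 4.46, 4.35 and 4.15% of counts in SKO and 2.88, 3.07 and 3.10% in WT libraries (4.32 ± 0.155% in SKO and 3.02 ± 0.123% in WT), a ratio of 1.43. The small subunit sum was 0.902, 0.944 and 0.956 times the large subunit sum in SKO libraries, against 0.843, 0.824 and 0.866 times in WT libraries. Each SKO library thus had more small subunit counts per large subunit count than any WT library, by a factor of 1.11 between the means.

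**Figure D4:**
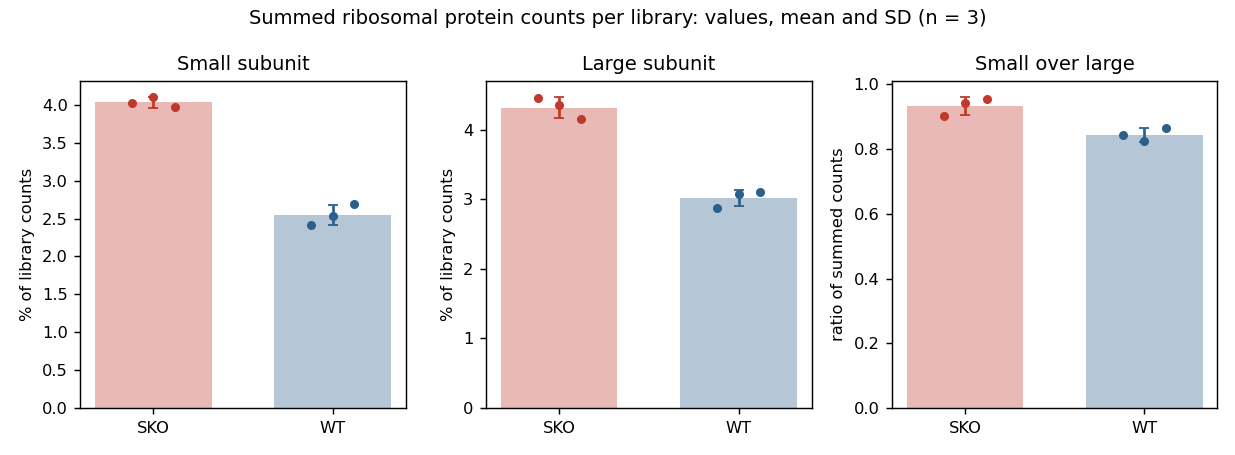
Share of all counts taken by small subunit and by large subunit genes, and the ratio of the summed counts, in the SKO and WT libraries (points are libraries, bars are means, error bars are SD, n = 3). Small subunit genes took 4.03% in SKO and 2.55% in WT libraries, and the ratio averaged 0.934 in SKO and 0.844 in WT.

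The make-up of that sum differed between the genotypes for some genes. Rps27 accounted for 6.27 ± 0.131% of the small subunit counts in SKO and 4.09 ± 0.150% in WT libraries, and Rps19 for 6.44 ± 0.289% in SKO and 5.00 ± 0.153% in WT (SD, n = 3 each). Rps2 made up 1.25 ± 0.121% in SKO and 2.28 ± 0.341% in WT, and Rps9 1.68 ± 0.176% in SKO and 2.75 ± 0.0753% in WT. Libraries of the genotypes did not overlap in the shares of these 4 genes, which were not tested. Rps27l, the largest single contributor, held 9.87 ± 1.20% in SKO and 9.83 ± 0.558% in WT. These shares do not depend on the scaling between libraries.

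Other proteins of the same subunit fall outside the rule by their symbols. Rps3a1, a body protein, had 1403, 1344 and 1360 CPM in SKO libraries and 760, 817 and 935 CPM in WT libraries (log2 fold change 0.71, SE 0.10, edgeR adjusted p = 0.000101). Rack1, the scaffold on the head that links the ribosome to signalling proteins, had 560, 461 and 487 CPM in SKO and 422, 379 and 425 CPM in WT libraries (0.30, SE 0.10, edgeR adjusted p = 0.0447). The groups did not overlap for either gene. The call for Rack1 was lost in 7 of 19 other settings, with library totals (log2 fold change 0.04, adjusted p = 0.801, edgeR), without a filter on low counts (0.0575) and without any one of SKO replicates 1 to 3 or WT replicates 1 and 2 (0.0618 to 0.163).

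The large subunit genes, the nearest set in kind, were higher in SKO for 39 of 49 tested genes and lower for 1, with a median log2 fold change of 0.77. Rpl10l, the autosomal retrogene of the X-linked Rpl10, was the gene that fell, with 174, 184 and 149 CPM in SKO and 232, 239 and 224 CPM in WT libraries (−0.46, edgeR adjusted p = 0.00685). Rpl10 itself had 758, 760 and 700 CPM in SKO and 258, 275 and 315 CPM in WT libraries (1.39, edgeR adjusted p = 1.14e-06). Scaled by library totals, 37 large subunit genes were higher and 3 lower, with a median of 0.51. With the GC content and length correction, 42 were higher and 1 lower, with a median of 0.89, beside 0.95 for the small subunit genes. Among all tested genes, 14.1% were higher and 14.4% lower with TMM, and 7.5% and 23.5% with library totals. That correction called 11.6% of all genes in each direction. The difference between the subunits was not tested gene by gene. Small subunit proteins of the mitochondrial ribosome were higher for 12 and lower for 2 of 29 genes, with a median of 0.14, and included Mrps14 (0.80), Mrps16 (0.71) and Mrps18c (0.81) as higher and Mrps18a (−0.52) and Mrps31 (−0.41) as lower. Scaled by library totals they were higher for 5 and lower for 6, with a median of −0.12, and Mrps18a stood at 0.03 after the GC content and length correction (adjusted p = 0.885, edgeR).

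Of 52 tested factors that build the 40S subunit, 7 were higher, 12 lower and 33 did not pass, with a median log2 fold change of −0.05. Over all tested genes 14.1% were higher and 14.4% lower. With library totals, 2 factors were higher and 19 lower, with a median of −0.31, where 7.5% of all tested genes were higher and 23.5% lower. Mphosph10 (0.76) and Fcf1 (0.69), both of the early processome on the ribosomal RNA precursor, and Ltv1 (0.41), a late assembly factor, were higher, Ltv1 not with library totals (0.14, adjusted p = 0.341, edgeR). Noc4l, with 31.8, 24.5 and 14.1 CPM in SKO and 105, 119 and 63.6 CPM in WT libraries, had a log2 fold change of −2.03 (SE 0.27, edgeR adjusted p = 9.27e-05), and Tbl3 (−1.41) and Utp4 (−0.95), also of the processome, were lower. Among S6 kinases, regulators of TOP mRNAs and factors of 40S quality control, 6 were higher and 6 lower of 22 tested, with a median of 0.01. With library totals 3 were higher and 9 lower (median −0.25), while correcting for length and GC content left 4 higher and 3 lower (median −0.01), where 11.6% of all genes were called in each direction. Larp1, the repressor of TOP mRNAs, had 21.6, 13.9 and 17.1 CPM in SKO and 37.8, 43.3 and 30.6 CPM in WT libraries (−1.09, SE 0.22, edgeR adjusted p = 0.00197). Its relatives Larp1b (0.88) and Larp4 (0.72) were higher, as was the kinase Rps6ka6 (0.69), but Larp4 did not pass after the GC content and length correction (0.27, adjusted p = 0.158, edgeR). Rps6kb2, an S6 kinase, had 2.39, 1.77 and 1.15 CPM in SKO and 12.2, 9.91 and 5.96 CPM in WT libraries (−2.39, SE 0.43, edgeR adjusted p = 0.000927), and Hbs1l, a ribosome rescue factor, was lower (−0.62).

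Among 15 TOP mRNAs that do not encode ribosomal proteins, 5 were higher, 5 lower and 5 did not pass, with a median of 0.09. The split depended on the scaling, with 3 higher and 7 lower under library totals (median −0.18), and 4 higher and 2 lower once corrected for length and GC content (median 0.04). Of all tested genes, 14.1% were higher and 14.4% lower with TMM, and 7.5% and 23.5% with library totals. With the correction, 11.6% of all genes were called in each direction. Npm1, a nucleolar chaperone, had 2376, 2609 and 2622 CPM in SKO and 1263, 1201 and 1398 CPM in WT libraries (0.98, SE 0.09, edgeR adjusted p = 6.12e-06), and Naca (0.70) and the elongation factor subunit Eef1b2 (0.57) were also higher. The elongation factor Eef2, which moves the ribosome along the mRNA, had 87.7, 76.7 and 78.7 CPM in SKO and 125, 150 and 106 CPM in WT libraries (−0.65, SE 0.14, edgeR adjusted p = 0.00353). Eef1g (−0.51) and the initiation factor subunit Eif3h (−0.55) were lower. After the GC content and length correction Eef2 stood at 0.04 and Eef1g at −0.17, and neither passed (adjusted p = 0.855 and 0.245, edgeR).

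**Figure D5:**
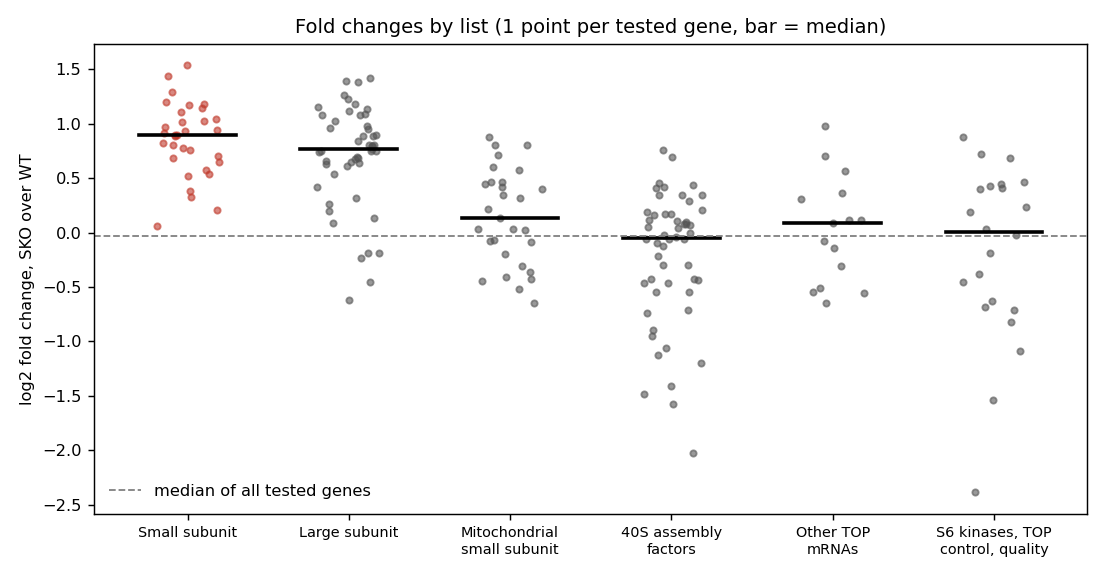
Log2 fold change, SKO over WT, of each tested gene in 6 lists, with a bar at each list's median and a dashed line at the median of all tested genes. The small subunit genes lie at a median of 0.90, the large subunit genes at 0.77, and the other lists between −0.05 and 0.14 (−0.31 to −0.12 with library totals).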

How the data were processed

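Smart-seq2 libraries of sorted mouse leptotene and zygotene spermatocytes were compared, 3 Srp68 SKO and 3 wild type. The authors deposited raw counts of reads per gene, not normalized, per the file header and values. The submitters' processing notes name FastQC, Trim Galore 0.6.4 and HISAT2 2.0.5, with GRCm38 and mm10; the counter, its strand setting and its annotation were not given in the sources used here. File columns write CKO where the labels write SKO and were assigned by genotype and replicate number.

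GENCODE vM21 gave symbols for 49325 of 49584 rows. Counts were filtered with filterByExpr, scaled by TMM and tested with edgeR 4.0.16 (quasi-likelihood, genotype only, Benjamini-Hochberg over 13474 genes, adjusted p under 0.05) in R 4.3.3. The biological coefficient of variation was 0.304. Fold changes put SKO over wild type, with SE from that fit. The method was tested on simulated data. Alternatives used DESeq2 1.42.0, limma 3.58.1, other scalings and filters, a replicate block, left-out libraries, a GC content and length correction (loess, span 0.3) and added pseudogene counts; added near-identical copies (blastn 2.17.0) were chosen after seeing the data. Genes with values in every library were the members that did not pass, the 6 largest and 4 smallest called changes, paralogs, fusion genes, the X-linked gene and the extremes per kilobase of exon; of other lists, up to 3 per direction by p; members given beyond this rule were chosen after their values were seen. The members and lists were chosen with earlier results of these data known. Reads carry no molecular identifiers, so count floors cover counting error only. No replicates agreed within sampling noise (chi-square over degrees of freedom 12.0 to 22.2). Riok2 and Gcn1 were not analysed here. Some members are counted in the totals but not reported singly here.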

Additional observations from a re-analysis of the deposited data

How the results depend on the processing

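Over 19 other settings, 594 of 608 values of single members kept their direction and their side of the threshold. Rps3 no longer passed in 5 settings and Rpsa in 4, and Rps9 and Rps2 passed with the GC content and length correction. With library totals the estimates turned to −0.048 for Rps9 and −0.198 for Rps2, and without WT replicate 3 to −0.004 for Rps2 (−0.004 to 0.124 over the left-out libraries); none of these passed, and the cause was not tested. The members' median log2 fold change was 0.635 with library totals, where the median of all genes moved as well, 0.954 with the GC content and length correction, and 0.862 to 0.958 with a library left out. Members called higher numbered 28 to 30 with a library left out. Genes called over the whole table numbered 2372 at an adjusted p under 0.01, and 2734 to 3767 with a library left out. The ratio of the small subunit share, SKO over WT, ran from 1.55 to 1.63 and that of the small to large ratio from 1.09 to 1.13 with a library left out. Pairing by replicate number was not seen in the correlations of deviations (0.0214, −0.0505 and 0.0391 for replicates 1, 2 and 3). Pairs of unlike number ran from −0.0994 to 0.0842, and so few libraries cannot exclude a pairing. A replicate block called 30 members and 3967 genes, with a median of 0.903. Depth limits Rps4x most, with 122 to 382 counts per library.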
